A study of Homo sapiens with 6 samples.

Results

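TTYH1 and the transcripts annotated opposite and within it were followed in 6 RNA-seq libraries. The genes described are TTYH1 (ENSG00000167614), the antisense gene ENSG00000227407 and ENSG00000268496, the second gene that ENSG00000227407 overlaps on the other strand. They are 3 of the 57209 gene identifiers in each count table. They were chosen by position and because earlier results of these data showed a large difference for ENSG00000227407 between the groups, so their values in that comparison are given as a description, with no test.

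MB157 is an established cell line from a human breast tumour of the triple-negative type, and the sample titles describe the cells as carrying the Cas9 nuclease. They were kept in puromycin and received a control sgRNA in 1 group and the SOX9 KO sgRNA in the other, with 3 libraries in each. Per the series text the guides were present for 4 days, the cells stably expressed SOX9, where the titles name Cas9, and the 50% of cells with the highest sgRNA expression were sorted. These statements differ, and whether SOX9 was overexpressed is not known from them. The replicates are called technical in the labels, so spreads and p-values measure only the variation between these libraries of 1 cell line.

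TTYH1 encodes a member of the tweety family, multi-pass membrane glycoproteins first described as chloride channels that respond to calcium or cell volume, a role that later structural work has questioned. The gene is known mainly from neural stem cells, glia and brain tumours, where it has been linked to Notch signalling and to long membrane protrusions. An antisense transcript such as ENSG00000227407 is read from the opposite DNA strand and can be told from the mRNA only when the library keeps the strand of the RNA.

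On GRCh37, TTYH1 runs from 54926393 to 54948080 on the plus strand of chromosome 19, with 7069 bp of annotated exon. ENSG00000227407 has 2 exons on the minus strand and 529 bp in all. Its first exon (54945822 to 54945878, 57 bp) lies in a TTYH1 intron, and its second exon (54941832 to 54942303, 472 bp) covers 1 whole TTYH1 exon, intron on both sides of it and the start of the next exon. The exons of TTYH1 and ENSG00000227407 share 120 bp. ENSG00000268496 is a sense intronic transcript of 1 exon (54945363 to 54945845, plus strand, 483 bp) that shares 24 bp with the first exon of ENSG00000227407 and none with a TTYH1 exon.

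**Figure D1:**
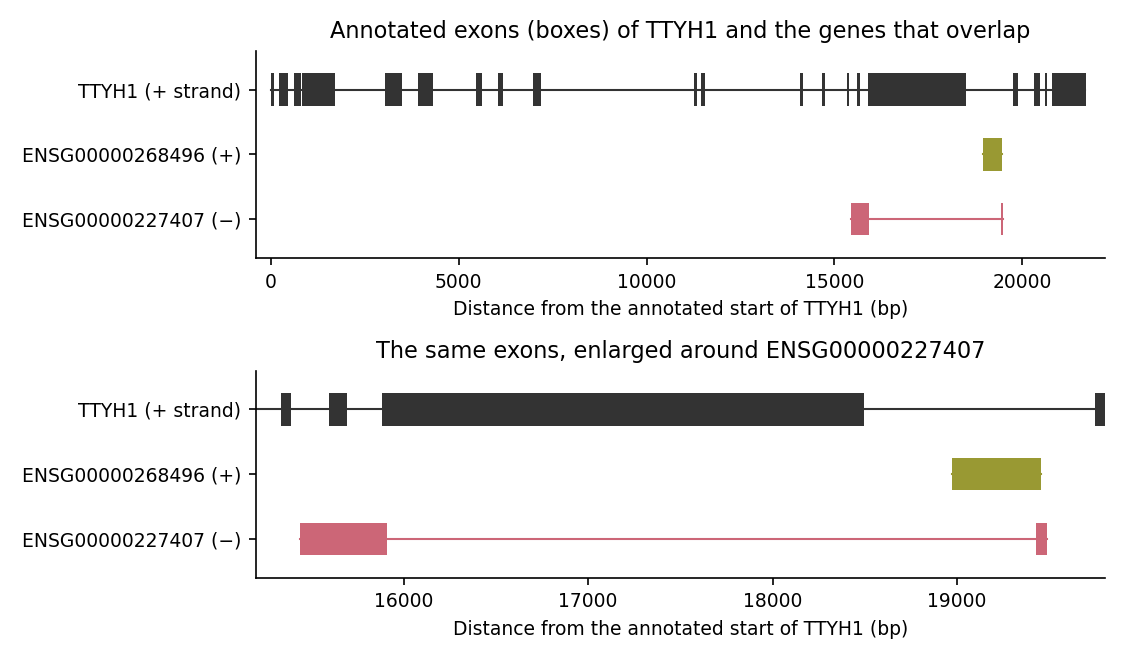
Annotated exons of TTYH1, ENSG00000268496 and ENSG00000227407, drawn to scale on GRCh37, with the distance from the annotated start of TTYH1 in bp on the x axis. Boxes are exons and lines join the exons of a gene. The lower panel enlarges the stretch around ENSG00000227407, whose 472 bp exon lies across a whole TTYH1 exon and the start of the following one.

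The stretches of ENSG00000227407 that face annotated exons are shown because they are where a fragment could be counted for a gene on either strand, depending on its orientation. They are the letters of the GENCODE release 29 transcript, on the minus strand of GRCh38 (chr19:54434642-54434698, chr19:54431066-54431125 and chr19:54430798-54430920), 5′ to 3′. Capitals mark the 24 bases opposite ENSG00000268496 in the first line and the 27 and 93 bases opposite TTYH1 exons in the other lines.
Exon 1: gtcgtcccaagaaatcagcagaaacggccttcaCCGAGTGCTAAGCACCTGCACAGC
Start of exon 2: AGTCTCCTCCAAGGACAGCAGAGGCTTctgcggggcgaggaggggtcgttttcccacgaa
Middle of exon 2: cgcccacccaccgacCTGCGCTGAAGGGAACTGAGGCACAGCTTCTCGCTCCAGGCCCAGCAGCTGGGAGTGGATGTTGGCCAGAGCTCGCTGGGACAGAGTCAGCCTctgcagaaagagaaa
Exon lengths and shared bases were the same in the GRCh37 annotation of the deposited tables. Counts were deposited per gene, so the share of fragments falling in each of these stretches is not known.

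Library totals ran from 776125 to 1018854 counts, and 18326 to 18818 genes were detected with the control sgRNA against 20207 to 21082 with the SOX9 sgRNA. Replicates were not copies of one another: chi-square over degrees of freedom was 2.00 to 2.61 for pairs within a group and 5.36 to 6.92 for pairs between groups. SOX9, the targeted gene (ENSG00000125398), had 38, 52 and 44 counts in control libraries 1 to 3 and 37, 39 and 60 with the SOX9 sgRNA. Its log2 ratio (the fold change, SOX9 sgRNA over control sgRNA, on the log2 scale) was -0.21 (SE 0.26, adjusted p = 0.70 with edgeR). The counts listed for SOX9 therefore do not check the labels, and which strand's RNA they hold was not tested. All 6 simple epithelial markers were tested and edgeR called 2 lower, KRT7 (-0.92) and KRT19 (-0.73), and 0 higher, where it called 6.02% of all tested genes lower. The others had log2 ratios of -0.65 (EPCAM), -0.04 (CDH1), 0.11 (KRT8) and 0.32 (KRT18). The summed markers stood at 1011 to 1105 CPM in control libraries and 842 to 1058 CPM in SOX9 sgRNA libraries, and their part in the results was not tested. Leukocyte markers summed to 17.8 to 37.4 and 35.045 to 42.9 CPM, with CD3E at 0 counts throughout and PTPRC, CD79A and CD14 at 4 counts or fewer. CD68 made up most of these sums, with 18, 11 and 21 counts in controls and 31, 32 and 36 with the SOX9 sgRNA, groups that did not overlap (log2 ratio 0.69, SE 0.34, adjusted p = 0.19 with edgeR). Endothelial CDH5 and VWF were at 0. Neural and glial markers, of the cells where TTYH1 is best known, summed to 40.3 to 69.8 and 45.5 to 64.2 CPM, and none of the 4 was at 0 in all libraries. Basal epithelial markers summed to 101 to 137 CPM in controls and 138 to 146 CPM with the SOX9 sgRNA. Of these, KRT14 had 14, 9 and 16 against 1, 0 and 6 counts, and KRT17 0, 3 and 0 against 7, 4 and 10. Neither passed the filter on low counts. ERBB2 averaged 217 and 205 CPM. Fibroblast markers summed to 2.67 to 7.19 and 3.89 to 15.7 CPM. GAPDH had 66 to 126 counts where the gene opposite it, ENSG00000269968, had 7249 to 11002. Genes with an annotated exon on the other strand were 11223 of the 57209 identifiers, 92 of the 100 with the most counts, and held 80.9% to 81.5% of counts in each library. If the strand setting used in counting was opposite to that of the kit, the counts listed for ENSG00000227407 would include TTYH1 RNA and those listed for TTYH1 would come from the other strand. Which strand's RNA these counts hold was not tested, and the same holds for SOX9, the markers and every other gene named here. All gene names are used only as the deposited counts assign them.

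The counts listed for ENSG00000227407 were high with the control sgRNA and low with the SOX9 sgRNA. Which strand's RNA they hold was not tested. The gene had 835, 955 and 826 counts in the libraries of the control sgRNA, in replicate order, and 36, 41 and 54 in those of the SOX9 sgRNA. Each control library was far above every SOX9 sgRNA library. In CPM, counts scaled to a library of 1e6 after TMM correction, the values were 1115, 1213 and 1188 in control libraries and 43.4, 53.3 and 52.6 in SOX9 sgRNA libraries. The mean went from 1172 ± 50.9 to 49.7 ± 5.54 CPM (SD, n = 3 each), 23.6 times lower, and the lowest control library was 20.9 times above the highest SOX9 sgRNA library. The log2 ratio was -4.49 (SE 0.12), against a median of 0.01 over the 7959 genes tested. In bulk RNA, a fall in the number of cells that make a transcript and a fall in its level per cell cannot be told apart.

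The counts listed for TTYH1 did not follow, and which strand's RNA they hold was not tested. The gene had 70, 111 and 100 counts with the control sgRNA and 99, 130 and 158 with the SOX9 sgRNA, which is 93.5, 141 and 144 CPM against 119, 169 and 154 CPM. The ranges overlapped, with control libraries 2 and 3 above SOX9 sgRNA library 1. The mean was 126 ± 28.3 CPM in controls and 147 ± 25.5 CPM with the SOX9 sgRNA (n = 3 each), a log2 ratio of 0.22 (SE 0.18). The difference was smaller than the SD of either group.

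ENSG00000268496 was near the limit of detection. It had 7, 2 and 6 counts with the control sgRNA and 5, 8 and 11 with the SOX9 sgRNA, which is 6.84 ± 3.74 against 9.04 ± 2.62 CPM (n = 3 each). It did not pass the filter on low counts, which the other two genes passed, and no fold change was fitted. The groups did not overlap for 1 of the 3 genes, ENSG00000227407. Over the 7959 tested genes, groups did not overlap for 24.5%, with the SOX9 sgRNA higher for 11.7% and lower for 12.8%. That comparison chose the genes, so nothing is read from the count.

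**Figure D2:**
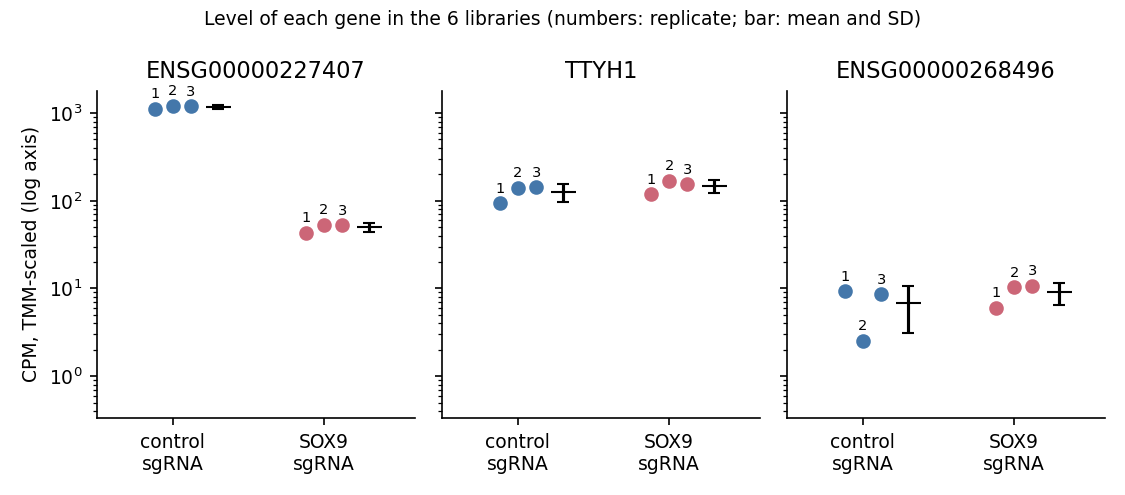
CPM scaled by TMM factors (log axis) of ENSG00000227407, TTYH1 and ENSG00000268496 in the 3 control sgRNA (blue) and 3 SOX9 sgRNA (red) libraries. Points are libraries labelled by replicate number, and the black bars give mean and SD. ENSG00000227407 lies at 1115 to 1213 CPM in control libraries and at 43.4 to 53.3 CPM in SOX9 sgRNA libraries, while the groups overlap for both other genes.

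Scaled by exon length, ENSG00000227407 stood at 2215 ± 96.2 CPM per kb in controls and 94.02 ± 10.5 with the SOX9 sgRNA. TTYH1 stood at 17.8 ± 3.9998 and 20.8 ± 3.61 CPM per kb. The density of counts on the antisense gene was thus 110 to 159 times that on TTYH1 in control libraries and 4.21 to 4.86 times with the SOX9 sgRNA. The annotated exon length of TTYH1 joins the exons of all its isoforms, including a long exon of 2614 bp, and a density over that length need not be that of any single mRNA. Among tested genes ordered by control CPM per kb, ENSG00000227407 ranked 59 and TTYH1 3020. By SOX9 sgRNA CPM per kb they ranked 1095 and 2791. Among the 1516 tested genes annotated as antisense, ENSG00000227407 ranked 51 by control CPM and 900 by SOX9 sgRNA CPM.

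The share of the pair's counts listed for ENSG00000227407 fell with its own counts. This share sets 529 bp of its exon against 7069 bp of TTYH1 exon, with 120 bp in common. It is therefore not a division of the same stretch between the strands. ENSG00000227407 held 92.3%, 89.6% and 89.2% of the sum of its own and TTYH1's counts in control libraries 1 to 3, with 95% Wilson intervals spanning 87.04% to 93.8%. In SOX9 sgRNA libraries 1 to 3 it held 26.7%, 24.0% and 25.5%, with intervals spanning 18.2% to 34.7%. These intervals cover counting error only, and may be too narrow even for that, since reads without molecular identifiers are not independent molecules. ENSG00000227407 was chosen for its difference between these groups, so nothing is read from the gap between the intervals. The group means were 90.4% ± 1.67 and 25.4% ± 1.35 (SD, n = 3 each). For each 100 counts of ENSG00000227407 there were 8.38 to 12.1 TTYH1 counts in controls and 275 to 317 with the SOX9 sgRNA. The counts of the pair together went from 1298 ± 78.3 to 197 ± 30.9 CPM, and when the pair was fitted as 1 gene its log2 ratio was -2.70 (SE 0.099).

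**Figure D3:**
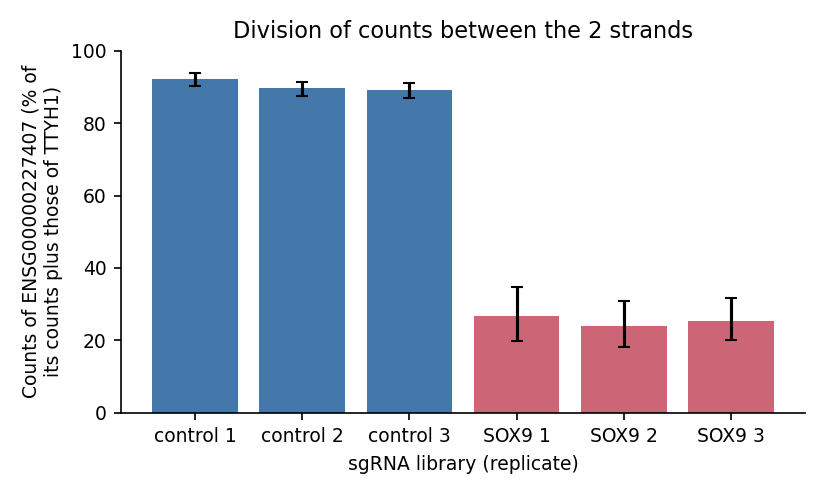
Counts of ENSG00000227407 as a percent of its counts plus those of TTYH1 (y axis) in each library (x axis), with bars from 0 and 95% Wilson intervals as error bars. Control sgRNA libraries (blue) lie between 89.2% and 92.3%, and SOX9 sgRNA libraries (red) between 24.0% and 26.7%.

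Other overlapping genes show how the pair compares. Among tested genes, 1985 pairs had exons that overlap on opposite strands. In each pair the gene with more control CPM per kb was taken first, and 141 pairs, this one included, had a ratio of densities at least as large as the 124 of ENSG00000227407 over TTYH1, against a median of 7.64. In 38 other pairs the denser gene fell at least 2-fold and passed the edgeR threshold, with a median log2 ratio of -1.43. The partner was called lower in 12 of these, higher in 1 and not called in 25, and its median log2 ratio was -0.51. The 12 are 31.6% of these partners, where 6.02% of all tested genes were called lower and 2.99% higher. In 12 of the 38 the partner had a positive log2 ratio, as TTYH1 did. Some genes enter more than 1 pair.

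Other pairs with large falls, named here after their values were seen, are given for comparison, and whether they differ from the TTYH1 pair was not tested. For ENSG00000253348, opposite the GABA-A receptor pi subunit gene GABRP, the log2 ratio was -5.41 (SE 0.17), and that of GABRP itself was -2.33 (SE 0.58). For MUC5B-AS1 it was -4.36 (SE 0.30), and for the gel-forming mucin gene MUC5B -1.74 (SE 0.40). Partners near 0 also occurred among the large falls. For S100A13 the log2 ratio was -3.08, with 0.01 for its partner CHTOP and -1.89 for its other partner S100A1. For TBPL1 it was -2.30, with 0.17 for its partner SLC2A12. The gap between partner and denser gene was 4.71 log2 units for TTYH1 and ENSG00000227407, and no other pair had a larger one. The pair was chosen from this comparison, so nothing is read from that rank.

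**Figure D4:**
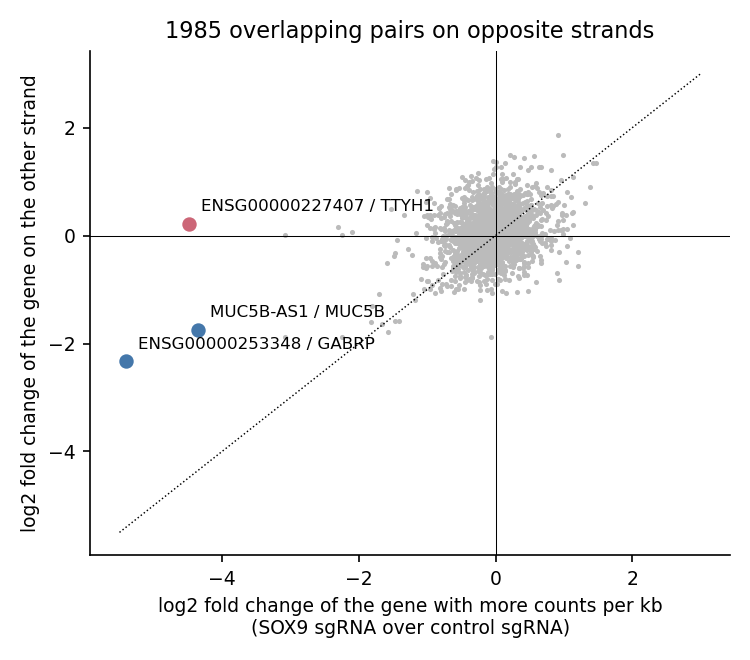
Log2 ratio (SOX9 sgRNA over control sgRNA) of the gene with more counts per kb in controls (x axis) and of the gene overlapping it on the other strand (y axis) for 1985 pairs (grey points, 3 pairs named). The dotted line marks equal values. ENSG00000227407 with TTYH1 (red) lies at -4.49 and 0.22, while the partners GABRP and MUC5B (blue) lie at -2.33 and -1.74.

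The locus lies beside the leukocyte receptor complex, a cluster of immunoglobulin-like receptor genes. Of 52 other genes with an exon within 250 kb of ENSG00000227407, 22 had any count and 7 passed the filter on low counts. Of these 7, edgeR called 0 higher and 0 lower at an adjusted p under 0.05, where it called 9.01% of all tested genes, 2.99% higher and 6.02% lower. DESeq2 also called 0, and 1 of the 7 had an unadjusted p under 0.05 with edgeR. Their median log2 ratio was -0.36, with a range of -0.64 to 0.03. The nearest, LENG8, began 14187 bp beyond ENSG00000227407 and had 83, 65 and 71 counts in controls and 95, 77 and 91 with the SOX9 sgRNA. Its log2 ratio was 0.03 (SE 0.20, adjusted p = 0.95 with edgeR), and the sign turned when control library 2 (-0.091) or SOX9 sgRNA library 1 (-0.068) was left out. The lowest value was that of LILRA6, a leukocyte immunoglobulin-like receptor gene, at -0.64 (SE 0.29, adjusted p = 0.15 with edgeR). LILRA6 is nearly identical to LILRB3, whose annotated span it overlaps on the same strand, so both counts are uncertain. TSEN34, a tRNA splicing endonuclease subunit gene, had -0.58 (SE 0.31, adjusted p = 0.24 with edgeR).

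**Figure D5:**
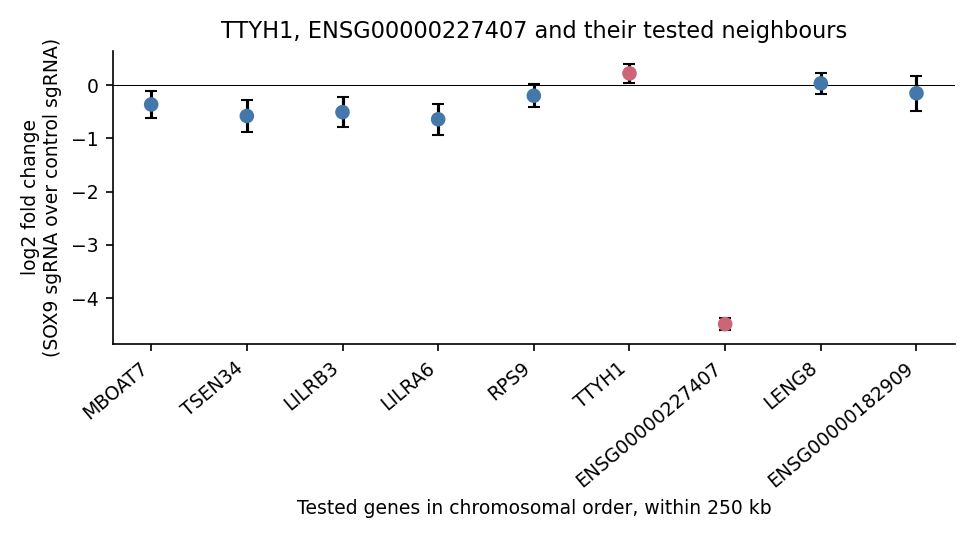
Log2 ratio (SOX9 sgRNA over control sgRNA, y axis) with its standard error for TTYH1 and ENSG00000227407 (red) and the 7 tested genes with an exon within 250 kb (blue), in chromosomal order. ENSG00000227407 lies at -4.49, and the 7 neighbours lie between -0.64 and 0.03.

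The counts listed for the other tweety genes were few, and which strand's RNA they hold was not tested. TTYH2 had 2, 0 and 1 counts in control libraries and 1, 2 and 8 in SOX9 sgRNA libraries. TTYH3 had 6, 10 and 3 against 4, 2 and 5. Neither passed the filter, so no difference was fitted, and no tested gene had an exon opposite either of them.

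Other anion channel and transporter genes, among which edgeR's calls are read against 2.99% higher and 6.02% lower over all tested genes, came in a pair of lists. In the list of volume-regulated and calcium-activated anion channels, 6 of 18 genes were tested, 1 was called higher and 0 lower, with a median log2 ratio of 0.12 against 0.01 over all tested genes. The one call was ANO9, an anoctamin gene, with 21, 24 and 12 counts in controls and 61, 22 and 69 with the SOX9 sgRNA. SOX9 sgRNA library 2 lay within the control range. The log2 ratio was 1.09 (SE 0.32, adjusted p = 0.011 with edgeR), and the call was lost without control library 3 (0.90), SOX9 sgRNA library 1 (0.87) or SOX9 sgRNA library 3 (0.94), and with DESeq2 (1.16, adjusted p = 0.058). ANO8 had 0.87 (SE 0.55, adjusted p = 0.29 with edgeR) and ANO10 -0.52 (SE 0.52, adjusted p = 0.57 with edgeR). BEST1, a bestrophin gene, had 8823 to 13164 counts and a log2 ratio of 0.04 (SE 0.047, adjusted p = 0.67 with edgeR), and it lies opposite the ferritin gene FTH1, which had 216 to 344 counts. Opposite the list, 4 genes were tested and edgeR and DESeq2 each called 0, with 1 at an unadjusted p under 0.05 in edgeR.

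In the list of other chloride channels and transporters, 4 of 18 were tested, 1 was called higher and 0 lower, with a median of 0.21, where 2.99% of all tested genes were called higher. SLC12A4, a potassium-chloride cotransporter gene that acts in cell volume control, rose from 46, 37 and 59 counts to 110, 89 and 95, with groups that did not overlap. Its log2 ratio was 0.80 (SE 0.22, adjusted p = 0.0070 with edgeR), and the call was lost without control library 2 (0.60) or SOX9 sgRNA library 1 (0.67). CFTR, CLIC5 and CLIC6, named for that value, were at 0 in all libraries. Opposite the list, 3 genes were tested and edgeR and DESeq2 each called 0, where edgeR called 9.01% of all tested genes.

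Genes of the Notch pathway, to which TTYH1 has been linked through gamma-secretase (the protease that releases the Notch intracellular domain), were also examined. Among gamma-secretase subunits and RER1, a retention receptor for one of them, 6 of 7 genes were tested and edgeR and DESeq2 each called 0, with 0 at an unadjusted p under 0.05 in edgeR and a median of 0.09. RER1 had -0.27 (SE 0.17, adjusted p = 0.38 with edgeR). Opposite this list, 4 genes were tested and edgeR and DESeq2 each called 0, with 1 at an unadjusted p under 0.05 in edgeR. Among Notch receptors, ligands and targets, 6 of 15 were tested and edgeR and DESeq2 each called 0. Of the 6, 1 had an unadjusted p under 0.05 in edgeR, and the median was 0.16. Over all tested genes edgeR called 9.01%, 2.99% higher and 6.02% lower, so nothing is read from 0 calls in either list. NOTCH3 had 0.35 (SE 0.22, adjusted p = 0.36 with edgeR) and the ligand gene JAG1 1.35 (SE 0.63, adjusted p = 0.090 with edgeR). The count opposite JAG1, named ENSG00000270792 and sharing 79 bp of exon with it, rose from 36, 59 and 30 counts to 126, 135 and 142. That is 55.4 ± 17.1 against 155 ± 18.8 CPM, a log2 ratio of 1.43 (SE 0.20, adjusted p = 8.99e-08 with edgeR). It was the only tested count opposite a gene of that list.

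Of 20 neural stem cell and glial genes, among which TTYH1 is best known, 4 were tested and edgeR and DESeq2 each called 0. Of the 4, 2 had an unadjusted p under 0.05 in edgeR, and the median was 0.12. Over all tested genes edgeR called 9.01%, so nothing is read from 0 calls among 4. SOX1, NES, S100B, NCAM1 and GPM6A, named for that value, were at 0 in all libraries. GPM6B, a myelin proteolipid family gene, had 0.53 (SE 0.25, adjusted p = 0.18 with edgeR). OLIG1, a transcription factor gene of oligodendrocytes, had -1.09 (SE 0.49, adjusted p = 0.10 with edgeR). Opposite this list 3 genes were tested, and edgeR called 1 lower and 0 higher, where it called 6.02% of all tested genes lower. POLR2F, opposite SOX10, had -0.46 and CCDC103, opposite GFAP, had 0.08, neither called. The count opposite OLIG1, ENSG00000227757 (201 bp of shared exon), fell from 35, 24 and 15 to 8, 8 and 6 counts. Its log2 ratio was -1.70 (SE 0.44, adjusted p = 0.0011 with edgeR). That call was lost without control library 1 (-1.40).

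The genes whose pattern over the 6 libraries was nearest to ENSG00000227407, by Euclidean distance of log2 CPM after subtraction of each gene's mean, were MUC5B-AS1 (0.56 log2 units), LINC01152 (0.94), ENSG00000267893 (0.98), ENSG00000265359 (1.18) and C12orf60 (1.49). MUC5B-AS1 had 123, 123 and 121 counts in controls and 5, 3 and 7 with the SOX9 sgRNA. LINC01152 had 121, 146 and 111 against 8, 8 and 5, and ENSG00000267893 had 177, 168 and 178 against 11, 4 and 8. LINC01152 and ENSG00000267893 end 82272 bp and 80289 bp before the targeted gene SOX9 on chromosome 17, and the latter lies opposite SOX9-AS1. ENSG00000265359, opposite the keratin gene KRT12, had 14, 32 and 31 control counts and 0 in each SOX9 sgRNA library, at least 30.2-fold lower with a floor of 3 counts over the group. C12orf60, opposite MGP, a gene for an inhibitor of calcification, had 139, 176 and 155 against 17, 16 and 14. All 5 are low in every SOX9 sgRNA library, which is what the measure selects.

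The counts listed for TTYH1 had other nearest genes. They were IRF2 (0.16 log2 units), ENSG00000253144 (0.18), BCLAF1 (0.21), MRPS25 (0.22) and ENSG00000230955 (0.23). None is among the 5 nearest to ENSG00000227407. With log2 ratios of 0.22 for TTYH1 and -4.49 for ENSG00000227407 the measure fixes that outcome, so nothing is read from it.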

How the data were processed

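The authors deposited whole-number counts per gene, without normalization, for 6 libraries made with a stranded SMARTer Pico kit, per the labels. STAR 2.7.10a and GRCh37 (hg19) are named in the submitters' processing notes. Fragments were assigned to exons of Ensembl release 75 by featureCounts 1.6.2 with strand setting 1, each counted for every gene it overlaps, per the file headers. Biotypes and transcript letters came from GENCODE release 29, on GRCh38, and exon overlaps from bedtools 2.31.1.

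Groups were compared with edgeR 4.0.16 in R 4.3.3 (filterByExpr, TMM factors, robust quasi-likelihood test, no replicate block), with Benjamini-Hochberg adjustment over all tested genes and a threshold of 0.05. Log2 ratios are fitted with a prior count of 2, and SEs come from the test. The procedure was tested on simulated counts. DESeq2 1.42.0, other filters and scalings, a replicate block and leaving out libraries were alternatives.

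The genes described and all gene and marker lists were chosen with earlier results of these data known. Named list genes are up to 4 with the smallest adjusted p, and TTYH2 and TTYH3. Of the tested genes within 250 kb, up to 6 of the nearest were open to naming. Nearest patterns are the 5 genes at the smallest distance. The values of 1 list gene are not reported here.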

Additional observations from a re-analysis of the deposited data

How the results depend on the processing

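The log2 ratio of ENSG00000227407 stayed between -4.55 and -4.33 in every alternative run, and between -4.54 and -4.41 when 1 library was left out. The value with unscaled library totals was -4.33, a setting that moved the median of all genes from 0.01 to 0.16. TTYH1 stayed positive, from 0.04 to 0.34 with a library left out and 0.38 with library totals. Genes called higher and lower, 238 and 479 of 7959 tested, became 562 and 266 with library totals. With only genes that have no exon on the other strand, plus the members, they were 41 and 70 of 2958 tested. Higher calls were 130 with DESeq2 and 151 of 27856 tested with no filter on low counts. With a library left out they were 161 to 207, and lower calls 364 to 430. LENG8, not called, ran from -0.091 to 0.12 with a library left out and changed sign without control library 2 or SOX9 sgRNA library 1 (-0.068). JAG1 passed the threshold only with library totals (1.47, edgeR adjusted p = 0.047). The cause of these shifts was not tested. Replicate numbers did not pair the libraries (correlations of deviations from -0.01 to 0.02 for equal numbers). With a replicate block 175 genes were higher and 399 lower, ENSG00000227407 had -4.49, and ANO9 lost its call (1.03, edgeR adjusted p = 0.051).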

Other observations

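Among the 1516 tested genes annotated as antisense, the class of ENSG00000227407, 73 (4.82%) were called higher and 157 (10.4%) lower with edgeR, against 2.99% and 6.02% of all tested genes, and the median log2 ratio was 0.0016, against 0.0089 over all 7959 tested genes. ENSG00000227407 had the second lowest log2 ratio of all tested genes, after ENSG00000253348, a rank from the comparison that chose it.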
